A study of Mus musculus with 9 samples.

Results

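Cks1b, Cks2, Hmgn2 and Aldoa are 4 genes of cell division, chromatin and sugar breakdown that were measured on an array designed for glycosylation genes. Probe sets were taken as theirs when the RefSeq accession in the probe set name mapped to one of the 4 symbols, which gave 5 of the 1246 probe sets on the array: 1 each for Cks1b, Cks2 and Hmgn2 and 2 for Aldoa. The RNA came from CD8 T cells of female mice of the B10D2 strain, and every group carried a T cell receptor transgene. Naive cells were the control (3 arrays), deletion cells had been stimulated in the animal by a weak signal of their cognate antigen (3 arrays), and anergy cells by a strong signal (3 arrays). No label used here names the receptor or the antigen, or says how long after stimulation the cells were taken and whether animals were pooled. The labels number the arrays of a group as replicates without saying that each came from another animal, so errors and p-values measure the spread between these arrays, which may be technical. The study asked how glycosylation transcripts differ between the conditions that lead to deletion and to anergy, and these 4 genes lie outside that question.

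Naive T cells are quiescent. Antigen sends them into the cell cycle, and dividing T cells take up more glucose and run glycolysis faster. Cks1b and Cks2 are small proteins that bind cyclin-dependent kinases. Cks1b is also the cofactor with which the Skp2 ubiquitin ligase recognises the kinase inhibitor p27, and Cks2 is needed for the passage from metaphase to anaphase in meiosis. Hmgn2 is a high mobility group protein that binds nucleosomes and loosens chromatin. Aldoa, aldolase A, splits fructose 1,6-bisphosphate into a pair of triose phosphates in glycolysis.

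Cks1b, Cks2 and Hmgn2 were higher in both antigen-stimulated groups than in naive cells, whereas Aldoa was higher in anergy cells and overlapped with the naive level in deletion cells. In deletion cells Cks1b was 8.82-fold, Cks2 9.06-fold and Hmgn2 2.57-fold above naive, and in anergy cells they were 10.4-fold, 10.4-fold and 2.92-fold above. Aldoa was 1.05-fold and 1.03-fold above naive in deletion and 1.46-fold and 1.40-fold above in anergy, in its 2 probe sets. The genes were selected on these same log2 differences between the groups, known from the 9 arrays. Their differences are therefore a description, printed without p-values, and the calls counted further below are not read as tests. Levels are RMA values on the log2 scale, in which 1 unit is a doubling of the signal. Since probes differ in how strongly they bind, a level is compared only between arrays and not between genes.

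The sequences just upstream of the annotated transcript starts are shown because 3 of the genes were higher in both stimulated groups and the other one was not. They are 250 bases each, from RefSeq on GRCm38.p6, 5′ to 3′ on the strand of the gene, and all 4 genes matched the table. Capitals mark the motifs searched.
Cks1b, chr3:89418292-89418541, minus strand: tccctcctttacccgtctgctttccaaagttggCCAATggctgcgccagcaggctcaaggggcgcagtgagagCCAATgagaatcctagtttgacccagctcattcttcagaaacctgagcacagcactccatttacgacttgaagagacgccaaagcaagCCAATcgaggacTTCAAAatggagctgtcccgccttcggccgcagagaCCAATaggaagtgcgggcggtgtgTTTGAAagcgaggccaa
Cks2, chr13:51644982-51645231, plus strand: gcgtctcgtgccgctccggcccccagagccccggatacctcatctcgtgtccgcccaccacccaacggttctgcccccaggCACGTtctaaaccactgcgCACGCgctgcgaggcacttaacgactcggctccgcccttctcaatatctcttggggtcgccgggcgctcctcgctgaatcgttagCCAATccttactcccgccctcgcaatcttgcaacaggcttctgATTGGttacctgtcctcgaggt
Hmgn2, chr4:133967992-133968241, minus strand: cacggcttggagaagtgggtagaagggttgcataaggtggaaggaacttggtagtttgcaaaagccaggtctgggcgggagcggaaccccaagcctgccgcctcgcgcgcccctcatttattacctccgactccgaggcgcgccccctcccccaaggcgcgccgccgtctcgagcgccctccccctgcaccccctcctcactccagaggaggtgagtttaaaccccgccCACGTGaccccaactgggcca
Aldoa, chr7:126799179-126799428, minus strand: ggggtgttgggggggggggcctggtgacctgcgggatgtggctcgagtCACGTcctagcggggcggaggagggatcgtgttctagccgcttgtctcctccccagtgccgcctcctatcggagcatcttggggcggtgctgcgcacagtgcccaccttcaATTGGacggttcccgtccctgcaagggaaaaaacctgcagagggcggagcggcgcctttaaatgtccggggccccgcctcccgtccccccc

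The search covered these bases and the next 50 after each start, on both strands, for TTTGAA (the core of the cell cycle homology region), for CCAAT, for the hypoxia response cores ACGTG as well as GCGTG, for the E box CACGTG (which contains the former core on both strands) and for the E2F forms TTCCCGC as well as TTGGCGC as well as TTCGCGC. The Cks1b window held TTTGAA at 2 places, with first bases at -77 and -17 from the start, and TTTGAA occurred in 17.9% of 32851 promoter windows of that length. The Cks1b and Cks2 windows each held CCAAT 4 times, at -217, -177, -89 and -41 in Cks1b and at -65, -22, 15 and 33 in Cks2. At least 4 copies of CCAAT occurred in 1.06% of all windows, and at least 1 copy in 37.4%. Cks2 also held ACGTG at -169 (19.6% of windows) and GCGTG at -150 and 10, and Cks1b held GCGTG at 14 (32.4% of windows). Hmgn2 held 1 CCAAT at -3 and the E box at -21, a motif found in 7.15% of windows. The Aldoa window shown held CCAAT at -91 and ACGTG at -202. Of the other annotated starts of Aldoa, the one upstream window at chr7:126799255-126799504 also held TTCGCGC, at -206 (1.59% of windows), and that at chr7:126800448-126800697 held none of these letters. Any of the 3 E2F forms occurred in 8.07% of windows, and either hypoxia response core in 43.8%. No E2F form was in the Cks1b, Cks2 or Hmgn2 window or in the Aldoa window shown. TTTGAA was in the Cks1b window alone. The motif matches are descriptions of the letters and show no binding.

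Cks1b read, on the log2 scale and in the order of the replicate numbers, 7.75, 7.44 and 7.10 on the naive arrays, 10.76, 10.68 and 10.27 on the deletion arrays, and 10.86, 10.90 and 10.66 on the anergy arrays. All 6 stimulated arrays lay above all 3 naive arrays, and the smallest gap was 2.52 for deletion and 2.91 for anergy. The difference from naive was 3.14 ± 0.17 in deletion (SE, n = 3 arrays per group) and 3.38 ± 0.17 in anergy, rank 9 and rank 11 among the rises of all 1246 probe sets. Deletion and anergy arrays overlapped, with a difference of -0.24 ± 0.17 that takes them as unpaired. Arrays of the same number were also taken as pairs, which is an assumption. Between them Cks1b was lower in deletion in 3 of 3 pairs, by log2 differences of -0.10, -0.22 and -0.39. Of all 1246 probe sets 13.8% were lower in deletion in every pair, and 20.1% higher. Bulk RNA cannot tell more cells with a transcript from more RNA per cell.

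Cks2 gave nearly the same picture from a different probe set, which may bind more than 1 transcript (see Hmgn2 below). Its arrays read 8.01, 7.73 and 6.85 for naive cells, 10.83, 10.81 and 10.49 in deletion, and 10.88, 11.03 and 10.83 in anergy. Naive replicate 3 was the lowest of the 9 arrays and widened the naive SD to 0.61, against 0.19 in deletion and 0.10 in anergy. The difference from naive was 3.18 ± 0.24 in deletion and 3.38 ± 0.24 in anergy, rank 7 and rank 10 among the rises. Without naive replicate 3 these differences were 2.84 and 3.04. The highest deletion value equalled the lowest anergy value, and the groups differed by -0.20 ± 0.24 taken as unpaired. Within pairs Cks2 too was lower in deletion in 3 of 3, by -0.05, -0.22 and -0.34.

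**Figure D1:**
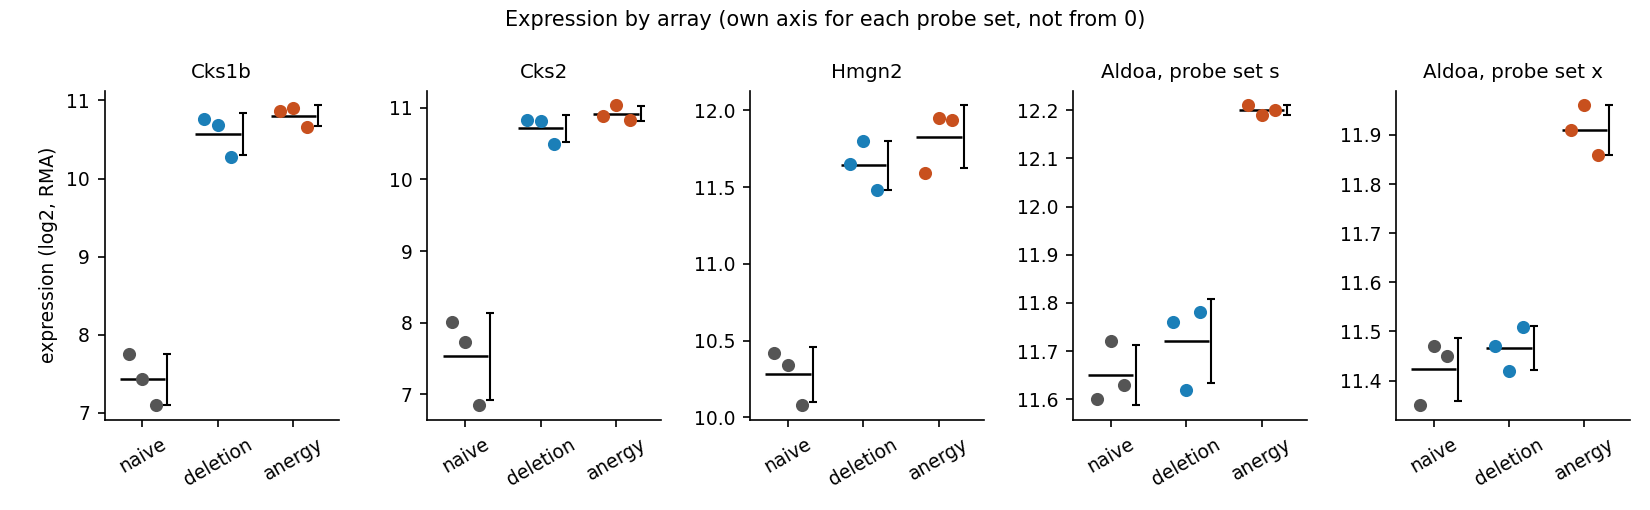
Log2 RMA expression (y axis, own range for each panel, not from 0) of the 5 probe sets on each array, by group (x axis). Points are arrays in the order of their replicate number, the line is the group mean and the bar its SD (n = 3). Cks1b, Cks2 and Hmgn2 lie higher in deletion and anergy than in naive cells, and both Aldoa probe sets lie higher in anergy than in the other 2 groups.

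Hmgn2 followed the same order of groups with smaller differences. Its arrays read 10.42, 10.34 and 10.08 for naive cells, 11.65, 11.80 and 11.48 in deletion, and 11.59, 11.95 and 11.94 in anergy. The stimulated arrays again did not overlap with the naive ones, by at least 1.06 in deletion and 1.17 in anergy. The difference from naive was 1.36 ± 0.13 in deletion and 1.55 ± 0.13 in anergy, rank 25 and rank 23 among the rises, and deletion differed from anergy by -0.18 ± 0.13 with overlapping arrays. Its pairs went both ways, at 0.06, -0.15 and -0.46, with 2 of 3 lower in deletion. The name of its probe set carries the suffix s, as does that of Cks2, which marks probes that can bind more than 1 transcript. RefSeq lists 2 other loci named after Hmgn2 (Hmgn2-ps1 and Hmgn2l6), so their transcripts could add to its signal. There is 1 named after Cks1b (Cks1brt) and 0 after Cks2. Which other transcripts the Cks2 probes can bind was not checked.

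Aldoa separated anergy from the other 2 groups. The probe set with the suffix s read 11.60, 11.72 and 11.63 for naive cells, 11.76, 11.62 and 11.78 in deletion, and 12.21, 12.19 and 12.20 in anergy. The 3 anergy arrays lay within 0.01 of their mean (SD 0.010) and at least 0.41 above each deletion array, while naive and deletion arrays overlapped. The probe set with the suffix x read 11.35, 11.47 and 11.45 in naive, 11.47, 11.42 and 11.51 in deletion, and 11.91, 11.96 and 11.86 in anergy, with a gap of 0.35 between anergy and deletion.

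For the s probe set deletion minus naive was 0.07 ± 0.06, anergy minus naive 0.55 ± 0.06 and deletion minus anergy -0.48 ± 0.06. For the x probe set these were 0.04 ± 0.06, 0.49 ± 0.06 and -0.44 ± 0.06. Both probe sets are built on 1 transcript, so they do not count as separate evidence, and RefSeq lists 4 other loci named after Aldoa (Aldoa-ps3, Aldoa-ps4, Aldoart1 and Aldoart2) whose transcripts could bind them. Both probe sets ranked between 4 and 13 in brightness among the 1246 on every array, where the size of a difference depends on the scaling. After quantile normalization anergy minus naive was 0.27 in the s and 0.40 in the x probe set, and deletion minus anergy was -0.20 and -0.42. Among the 20 brightest probe sets, the 17 that belonged to other genes went both ways: 8 were above and 9 below 0 in anergy minus naive (median -0.12, from -0.62 to 3.13), and 11 were above and 6 below 0 in deletion minus anergy (median 0.10, from -0.31 to 0.48).

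In counts, 3 of the 5 probe sets passed an adjusted p of 0.05 as higher in deletion than in naive cells in limma, where 8.51% of all 1246 probe sets did, and their arrays did not overlap, as held for 14.2% of all. As higher in anergy than in naive cells 5 of 5 passed, where 10.8% of all did, and 5 did not overlap (13.2% of all). As lower in deletion than in anergy 2 passed, both of Aldoa, where 1.28% of all did, and 2 did not overlap (5.62% of all). The median log2 difference over the 5 was 1.36, 1.55 and -0.24 in these 3 comparisons, beside -0.02, 0.01 and -0.01 over all probe sets. The choice of genes rests on these contrasts, so nothing is read from the counts. The comparisons of deletion and of anergy with naive share the 3 naive arrays.

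**Figure D2:**
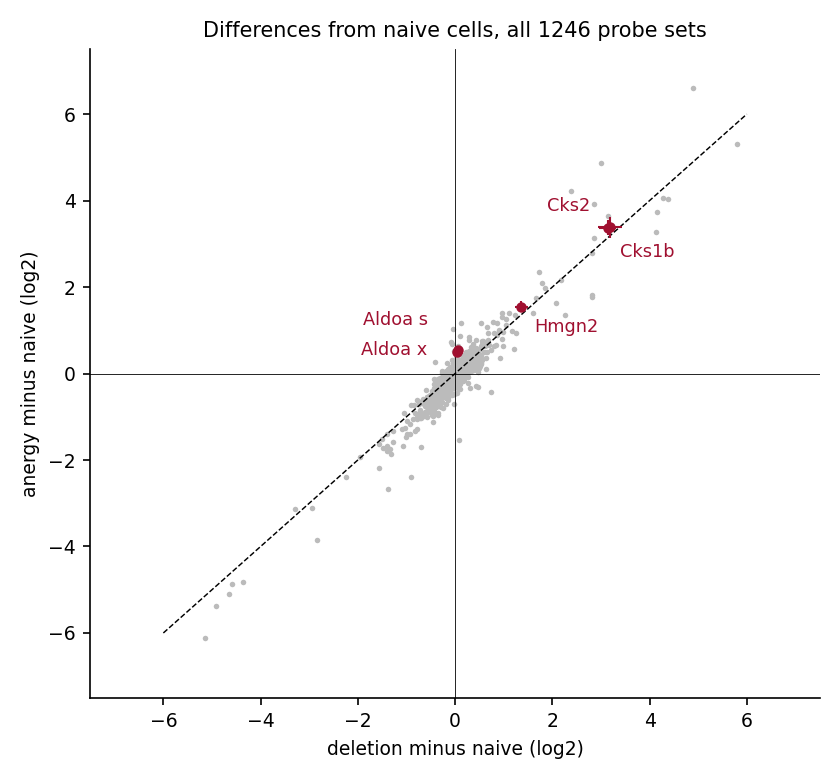
Log2 difference from naive cells in deletion (x axis) and in anergy (y axis) for each of the 1246 probe sets (grey), with the 5 named probe sets in red and their SE as bars. The dashed line marks equal differences; both axes use the same 3 naive arrays, so points near the line are no evidence of agreement. Cks1b and Cks2 lie together at 3.14 to 3.38, Hmgn2 at 1.36 and 1.55, and the Aldoa probe sets (s and x) near 0 in deletion and at 0.55 and 0.49 in anergy.

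Within a group the arrays also moved together in the 3 genes that rose. Naive replicate 3 was the lowest naive array for Cks1b (0.33 below the group mean), for Cks2 (0.68 below) and for Hmgn2 (0.20 below). Deletion replicate 3 was the lowest deletion array for the same 3 genes, at 0.30, 0.22 and 0.16 below the mean. Over all probe sets, 391 of 1246 (31.4%) were lowest in naive replicate 3, 384 (30.8%) in deletion replicate 3 and 141 (11.3%) in both. Aldoa did not share this order: neither array was lowest in either of its probe sets. In anergy Cks1b and Cks2 were lowest in replicate 3 and Hmgn2 in replicate 1. The 3 genes were read on the same arrays, so a property of an array and a property of its cells cannot be told apart.

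**Figure D3:**
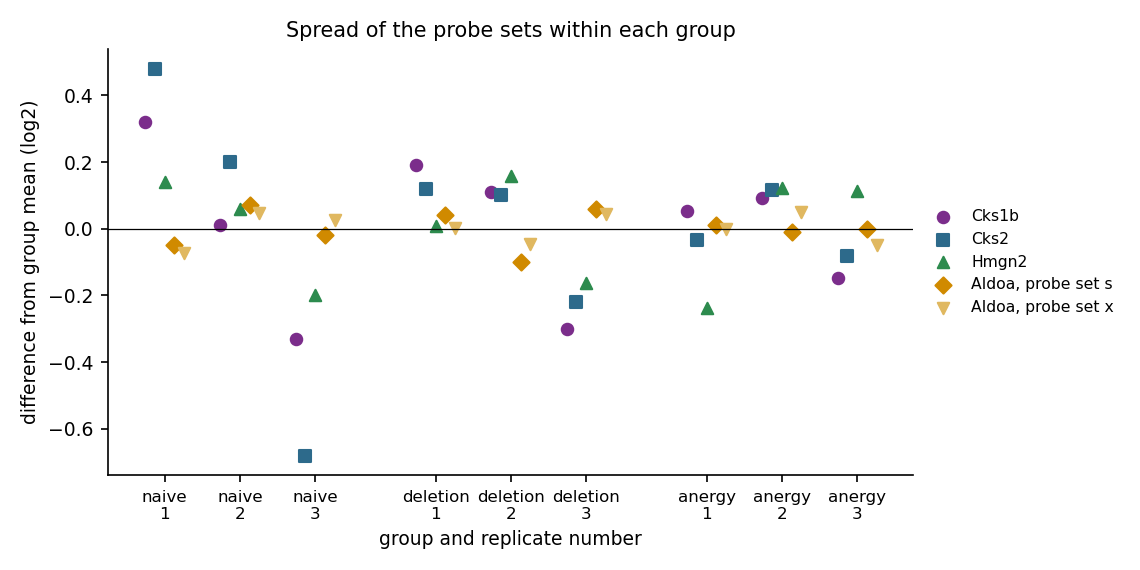
Difference of each array from its group mean (y axis, log2) for the 5 probe sets, by group and replicate number (x axis; the numbers set no order). In naive replicate 3 Cks1b, Cks2 and Hmgn2 lie 0.20 to 0.68 below their group mean, and in deletion replicate 3 they lie 0.16 to 0.30 below, while the Aldoa probe sets stay within 0.10 of theirs.

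Likeness of profile was measured as the root mean square difference of log2 values over the 9 arrays, after each probe set had been centred on its own mean, against the 908 other named genes. Cks1b was the nearest gene to Cks2, at 0.15. The nearest to Cks1b were Lgals1 (0.15), which encodes the galactose-binding lectin galectin-1, then Cks2 (0.15) and Lgals3 (0.27), which encodes galectin-3. After Cks1b, the nearest to Cks2 were Lgals1 (0.22) and Angptl2 (0.39), which encodes a secreted angiopoietin-like protein. Lgals1 had means of 9.55, 12.41 and 12.68 in naive, deletion and anergy cells. For Hmgn2 the nearest were the cytokine gene Il18 (0.20), its receptor gene Il18r1 (0.23) and the galactosyltransferase gene B4galt5 (0.23). Hmgn2 stood at 0.87 from Cks1b and 0.89 from Cks2. Ranked from either of them it was number 20 of the 908 genes, while ranked from Hmgn2 they were number 767 and 780. The measure counts the size of a rise as well as its shape.

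The genes nearest to Aldoa were Klrc3 (0.08), which encodes a lectin receptor of the NKG2 family, the chemokine receptor gene Cx3cr1 (0.10) and Il10 (0.12), which encodes an inhibitory cytokine. Their means in naive, deletion and anergy cells were 2.76, 2.83 and 3.38 for Klrc3, 4.19, 4.34 and 4.63 for Cx3cr1, and 2.84, 2.87 and 3.20 for Il10. The means of Klrc3 and Il10 lay below the array medians of 4.44 to 4.58, and those of Cx3cr1 lay near them. This likeness is a description over 9 arrays and has no test.

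Other genes of the same pathways were few on the array. Of 57 further cell cycle genes listed from textbook knowledge 0 had a named probe set here, and of 22 further chromatin proteins 0 did, so Cks1b, Cks2 and Hmgn2 stand without companions. Of 33 further genes of glycolysis and glucose uptake 2 were measured. Gpi1, which turns glucose 6-phosphate into fructose 6-phosphate, had means of 9.40 ± 0.09 (SD), 9.64 ± 0.10 and 9.65 ± 0.11 in naive, deletion and anergy cells. In anergy it was higher than in naive cells by 0.25 ± 0.08 (SE, limma, adjusted p = 0.0433), a call that held in 7 of 15 alternatives (adjusted p from 0.00115 to 0.185). The call was lost after median centring, in a fit of only the groups compared, and without naive replicate 2 or 3, deletion replicate 1 or 3, or anergy replicate 1 or 2.

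In deletion Gpi1 differed from naive cells by 0.24 ± 0.08 (limma, adjusted p = 0.0687) and passed in 4 of 15 alternatives (adjusted p from 0.00292 to 0.238). These were quantile normalization, array weights, a replicate block and leaving out anergy replicate 3 (adjusted p = 0.0371). Hk1, a hexokinase that phosphorylates glucose, gave 0.16 ± 0.11 in deletion (limma, adjusted p = 0.435) and 0.23 ± 0.11 in anergy (adjusted p = 0.189). In anergy Hk1 passed after quantile normalization alone (adjusted p = 0.0138). Under that scaling anergy minus naive was 0.36 for Gpi1 and 0.38 for Hk1, beside 0.27 in the s and 0.40 in the x probe set of Aldoa. Between deletion and anergy 0 of these 2 genes passed in limma, and 0 had an unadjusted p under 0.05. On the deposited scale the difference was -0.01 ± 0.08 for Gpi1 and -0.06 ± 0.11 for Hk1. Beside them, Aldoa gave -0.48 ± 0.06 in its s and -0.44 ± 0.06 in its x probe set. After quantile normalization Aldoa gave -0.20 and -0.42, and Gpi1 -0.04. The difference between these genes was not tested.

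Sugar phosphates leave glycolysis for the nucleotide sugars that feed glycosylation, and 28 of 40 genes of these side branches were measured. The list was chosen with earlier results of these data known, so nothing is read from its counts beside the array. Compared with naive cells 8 were higher and 2 lower in deletion, and 8 were higher and 2 lower in anergy, with 18 that did not pass in each (limma; the array as a whole had 8.51% higher and 10.5% lower in deletion, and 10.8% higher and 16.1% lower in anergy). The median difference was 0.10 in deletion and 0.12 in anergy. Pmm1, a phosphomannomutase that prepares mannose 1-phosphate, was higher by 0.78 ± 0.13 in deletion (SE, limma, adjusted p = 0.00157) and by 1.19 ± 0.13 in anergy (adjusted p = 6.96e-05). Gmds, which starts the synthesis of GDP-fucose, was higher by 0.85 ± 0.14 and 1.17 ± 0.14, and Gnpda1, which returns glucosamine 6-phosphate to fructose 6-phosphate, by 0.67 ± 0.07 and 0.94 ± 0.07. Uap1l1, a relative of the enzyme that makes UDP-GlcNAc, was higher by 0.97 ± 0.12 and 0.80 ± 0.12, and Ugdh, which makes UDP-glucuronic acid, by 0.58 ± 0.11 and 0.75 ± 0.11. These 5 genes passed against naive in all 15 alternatives. Galt, an enzyme of galactose use, differed by -0.58 ± 0.11 in anergy (limma, adjusted p = 0.0026) and gave -0.19 ± 0.11 in deletion (adjusted p = 0.337).

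The lower counts of the side branches rest on few arrays. For deletion the count of 2 became 0 or 1 without naive replicate 1, 2 or 3, deletion replicate 1 or 3, or anergy replicate 2. For anergy it became 1 without naive replicate 1 or 2, deletion replicate 1 or anergy replicate 3, and 4 without naive replicate 3 or anergy replicate 1 or 2. Between deletion and anergy 0 of the 28 passed in limma, and at an unadjusted p under 0.05 there were 1 higher and 4 lower. The nearest to the threshold were Galk1, a galactokinase (-0.41 ± 0.10, adjusted p = 0.0642), and Gnpda1 (-0.27 ± 0.07, adjusted p = 0.0771). After quantile normalization 5 were lower in deletion: Galk1 and Gnpda1 (limma, adjusted p = 0.0207 and 0.0114), Gmds, Pmm1 and Ugdh. With array weights 4 were lower, the same genes without Ugdh. Without anergy replicate 3 the lower count was 2, Gmds and Pmm1. With a replicate block it was 1, since Pmm1 (-0.40 ± 0.13, adjusted p = 0.136 in limma with no block) passed in that fit (adjusted p = 0.0184). The block covers the naive arrays too.

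**Figure D4:**
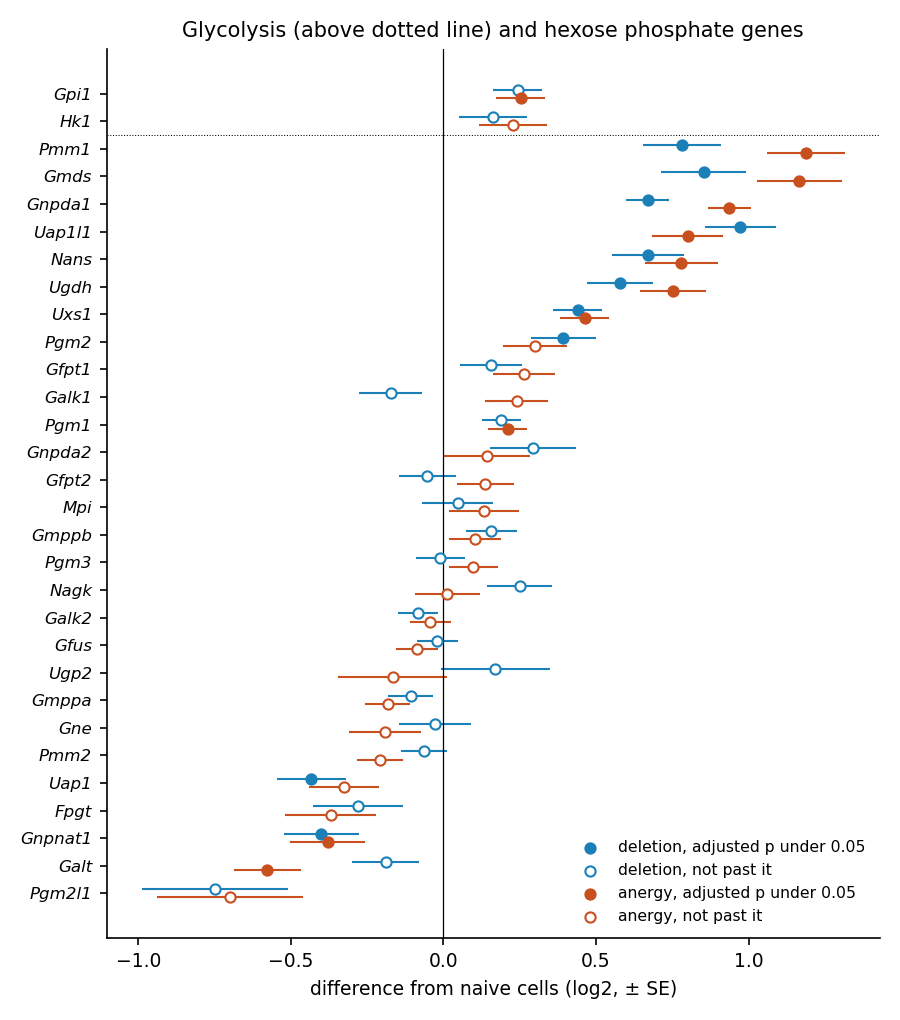
Log2 difference from naive cells (x axis, bars are SE) in deletion (blue) and anergy (orange) for the 2 measured glycolysis genes, above the dotted line, and the 28 measured genes of the hexose phosphate side branches (y axis). Filled points have an adjusted p under 0.05 in limma; 8 side branch genes are higher and 2 lower in each comparison.

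Genes of T cell activation were read beside the order of groups seen in Cks1b and that seen in Aldoa. This list too was chosen with earlier results of these data known, so nothing is read from its counts beside the array. Of 14 measured, 8 were higher in deletion than in naive cells and 12 in anergy, and 0 were lower in either (limma). At an unadjusted p under 0.05 there were also 0 lower, and without deletion replicate 3 there was 1 lower in each. In anergy that gene was Cd69 (named after its value was seen). Over all arrays Cd69 differed from naive cells by -0.44 ± 0.41 in deletion and -0.82 ± 0.41 in anergy, neither past the threshold. Of the whole array 8.51% was higher and 10.5% lower in deletion, and 10.8% higher and 16.1% lower in anergy. The chemokine gene Xcl1 was higher by 5.79 ± 0.21 in deletion and 5.32 ± 0.21 in anergy, and Il2rb, a chain of the interleukin-2 and interleukin-15 receptors, by 1.78 ± 0.09 and 2.09 ± 0.09. The chemokine genes Ccl3 and Ccl4 were higher by 4.27 ± 0.22 and 4.14 ± 0.24 in deletion and by 4.05 ± 0.22 and 3.28 ± 0.24 in anergy.

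In deletion 4 of the 14 were lower than in anergy, where 1.28% of the whole array was lower and 2.09% higher: Il2ra, which encodes the interleukin-2 receptor's alpha chain (-1.05 ± 0.11, adjusted p = 0.000525), Prdm1, the transcription factor Blimp-1 (-0.80 ± 0.12, adjusted p = 0.00514), Havcr2, the inhibitory receptor Tim-3 (-0.76 ± 0.12, adjusted p = 0.00608), and Il21, a cytokine gene (-0.56 ± 0.08, adjusted p = 0.00514). Against naive cells these 4 differed in deletion by 0.11, -0.08, 0.10 and -0.03, none past the threshold, and in anergy by 1.16, 0.72, 0.86 and 0.53, all past it. The signal of Il21 was dim, with means of 2.14, 2.11 and 2.67 in naive, deletion and anergy cells. They lay below the array medians of 4.44 to 4.58 and near the lowest value of 1.67. Since the list was chosen with earlier results of these data known, these counts and calls are a description. Cd83, a surface marker of activation, was the 1 gene higher in deletion than in anergy (1.00 ± 0.22, adjusted p = 0.0358; named after its value was seen). That count was 0 without naive replicate 2, deletion replicate 2 or 3, or anergy replicate 1 or 3, and 2 without deletion replicate 1. With a replicate block 2 were higher, Cd83 and Ccl4, and 5 were lower. For Ccl4 (0.86 ± 0.24) the adjusted p in limma was 0.0863 with no block and 0.0344 with it.

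Replicate arrays correlated at 0.995 to 0.998 across probe sets, array medians lay between 4.44 and 4.58, and anergy replicate 3 had the widest spread around its group (SD 0.166 on the log2 scale, against 0.094 to 0.128 on the others). Of 10 markers of CD8 T cells only Cd2 had a named probe set, with means of 11.58 in naive, 10.01 in deletion and 9.40 in anergy cells, lower in both stimulated groups. Markers of other cells were partly different between groups. Of 3 B cell markers Cd22 and Cxcr5 were higher and Cd72 lower in deletion than in naive cells. In anergy Cd22 was higher (0.98 ± 0.16), Cd72 lower (-1.64 ± 0.17), and Cxcr5 did not pass. The summed linear signal of the 3 ranged from 603 to 674 in naive, 398 to 568 in deletion and 369 to 426 in anergy arrays. That sum weighs the largest signal most, which in naive cells was Cd72 (mean 8.87), so its fall does not speak for all 3. Of 6 markers of macrophages and dendritic cells 0 were higher and 1 (Ly75) was lower, with sums of 207 to 216, 162 to 193 and 165 to 172. Of 5 markers of endothelial and stromal cells and platelets 1 (Pecam1, which T cells express too) was higher in deletion and lower in anergy, with sums of 408 to 440, 514 to 580 and 315 to 383. The single markers of the natural killer list (Klra8) and of the erythroid and granulocyte list (Siglecf) gave 8.40 to 9.99 and 5.90 to 7.26 on the anergy arrays, near the lowest signals, and Siglecf was higher than in naive cells by 0.33 ± 0.09 in deletion and 0.39 ± 0.09 in anergy. The 1 measured marker of the CD4 and regulatory T cell list was Il2ra, given above. No marker value is 0 on this scale, and the part of other cells in the differences of the 4 genes was not tested.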

How the data were processed

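RNA from 9 samples was measured on single-colour Affymetrix GLYCOv4 arrays from total RNA extracted with Trizol, per the labels' protocols. Each deposited value is the log2 expression of a probe set on an array. The submitters' processing notes name RMA and no version, and what annotation or filter the authors applied is not given in the sources used here. That the scale is log2 follows from RMA and from values that span 1.67 to 13.86. No detection column was used, so no probe set was called absent, and the number of arrays limits the precision (median SE of a difference 0.087).

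Accessions were matched without version to a RefSeq gene table of GRCm38.p6, which named 963 of 1246 probe sets (77.3%) as 909 genes. Where a listed gene had several probe sets, that with the highest mean stood for it, and every probe set of the 4 genes is shown. The 3 contrasts were estimated by lmFit and eBayes of limma 3.58.1 (R 4.3.3) over all 9 arrays, with no block and no filter, two-sided, with Benjamini-Hochberg adjustment over all probe sets and a threshold of 0.05. The fit was also run on simulated data, with independent normal noise of the same SD in every probe set. Real probe sets differ in spread, so that run does not show how the fit behaves on these arrays. Same-numbered deletion and anergy arrays deviated together from their group means (r = 0.195, 0.270 and 0.280). They were therefore also read as pairs, an assumption that no label states. Anergy and naive arrays gave -0.154, 0.274 and 0.175, in replicates 2 and 3 of like size. Deletion and naive arrays gave -0.136, 0.118 and -0.142. Correlations between arrays of different numbers were not computed, so the pairing was not tested. Errors and adjusted p-values of deletion against anergy are those of the fit with no block unless a replicate block is named. That block enters the number of all 9 arrays, naive ones included, so it does not pair deletion and anergy alone.

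The 4 genes and the gene lists were chosen with earlier results of these data known. Named genes are the 4 genes, all measured genes of the cell cycle, chromatin and glycolysis lists, the 4 with the smallest adjusted p per contrast of the side branch and activation lists, and the 3 nearest profiles of each. Alternatives were quantile normalization, median centring, leaving out the 414 dimmest probe sets, array weights, fitting only the groups compared, a replicate block and leaving out each array.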

Additional observations from a re-analysis of the deposited data

How the results depend on the processing

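The differences of the 5 probe sets were recomputed under 15 alternatives each. Fitting only the groups compared, adding a replicate block or leaving out dim probe sets cannot change a difference of group means. Leaving out an array of the group not compared cannot change it either. Those values stayed the same by construction, so the count that follows overstates how far the differences were tried. Of 225 values 221 moved by less than the spread between replicates, and the other 4 were of Aldoa after quantile normalization: anergy minus naive in its s (0.27 against 0.55) and x (0.40 against 0.49) probe sets, deletion minus anergy in s (-0.20 against -0.48) and deletion minus naive in x (-0.02 against 0.04). Cks1b ranged from 2.98 to 3.30 in deletion and 3.21 to 3.54 in anergy against naive, Cks2 from 2.84 to 3.42 and 3.04 to 3.62, and Hmgn2 from 1.26 to 1.45 and 1.45 to 1.67.

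Past the threshold, deletion exceeded naive in 106 probe sets and lay below it in 131, anergy exceeded naive in 134 and lay below it in 200, and deletion exceeded anergy in 26 and lay below it in 16. The first 4 counts stayed within 1.5 times under every alternative. The 26 became 13 after median centring, 44 with array weights and 8 in a fit of the 2 groups, and 8 to 30 when an array was left out (8 or 14 without deletion replicate 2 or 3, and 15 or 17 without anergy replicate 2 or 3). The 16 became 38 after quantile normalization and 31 with array weights; with a replicate block the counts were 33 and 22. In side branch genes lower, the 2 in deletion against naive became 1 after quantile normalization and 0 after median centring (0 to 2 with an array left out). The 2 in anergy became 1 under both scalings, 4 without the 414 dimmest probe sets and 5 with a replicate block (1 to 4). The 0 between deletion and anergy became 5 after quantile normalization, 4 with array weights and 1 with a replicate block (0 to 2). The 1 glycolysis gene higher in anergy became 2 after quantile normalization and 0 after median centring or in a fit of the groups compared (0 to 1). The 0 in deletion became 1 after quantile normalization, with array weights and with a replicate block (0 to 1). For activation genes the 1 higher in deletion than in anergy became 0 after median centring or in a fit of the groups compared and 2 with a replicate block (0 to 2), and the 0 lower in anergy became 1 in a fit of the groups compared (0 to 1, likewise in deletion). The causes were not tested. No background or detection value was used, so differences of dim probe sets may be understated.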
